A study of Drosophila melanogaster with 8 samples.

Results

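The epidermal growth factor receptor (EGFR) pathway is represented here by 10 genes of 17559 in the count table: the ligand genes vn, Krn and spi, the ligand-processing protease gene rho, the receptor gene Egfr, the inhibitor genes aos and sty, the transcription factor gene pnt, and the kinase cascade genes Ras85D and Raf. The rule matched each symbol to its FlyBase identifier and used no measured value. The symbols themselves were chosen with earlier results of these data known. All 10 were found and all 10 passed the filter on low counts. The RNA was that of whole guts of adult Drosophila melanogaster females, in 2 groups of 4 libraries that the series calls biological repeats. In the control group GFP was expressed from a UAS transgene, although the genotype label of those samples reads wt. In the other group the B-type lamin LamDm0, a protein of the nuclear lamina, was expressed from UAS-LamDm0 in enterocytes (EC), the absorptive cells of the midgut. Flies of both groups were raised at 18 °C, moved as females of 2 to 4 days to 29 °C and kept there for 2 days. The labels name no driver line, no insertion and no number of guts per library, so p-values measure the spread between these libraries. With whole guts, a change in enterocytes cannot be separated from one in muscle, progenitors, hormone cells or attached tissue.

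In the fly, Spitz (spi) and Keren (Krn) are made as membrane-bound precursors that Rhomboid proteases such as Rhomboid (rho) cut to release the active ligand, whereas Vein (vn) is secreted directly. Ligand binding to Egfr activates the GTPase Ras85D, the kinase Raf and then the MAP kinase cascade, which acts on the ETS transcription factor Pointed (pnt). Argos (aos) is a secreted protein that sequesters Spitz, Sprouty (sty) inhibits signalling inside the cell, and both are induced by the pathway in several fly tissues. In the adult midgut the pathway drives the growth and division of intestinal stem cells, with vn known from the visceral muscle and spi and Krn from the epithelium.

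Libraries held 19720070 to 36022790 counts. Lam, the gene for LamDm0, had 16.2 to 20.2 CPM (counts per 1000000, with edgeR's TMM scaling between libraries) in control libraries and 2702 to 4647 CPM in LamDm0 libraries, so each library matched its label. The libraries of each group fell into closer and more distant pairs. The mean chi-square per gene was 27.8 for control replicates 1 and 2, 88.0 for control replicates 3 and 4 and 49.8 for LamDm0 replicates 3 and 4. It was 193 to 423 for the other pairs within a group, so no pair differed by as little as sampling noise. LamDm0 replicates 1 and 2 had TMM factors of 0.943 and 0.924, and replicates 3 and 4 had 1.20 and 1.22. Control replicates 1 and 2 had 0.998 and 0.996, and control replicates 3 and 4 had 0.870 and 0.903. Mitochondrially encoded genes took 5.55%, 7.85%, 15.2% and 13.8% of counts in control replicates 1 to 4 and 8.53% to 21.8% in LamDm0 libraries. The controls thus also split into replicates 1 and 2 and replicates 3 and 4, and no fit left out a control pair. Enterocyte markers were abundant in both groups, the protease gene Jon65Aiii standing at 17092 ± 4011 and 13003 ± 2526 CPM and alphaTry at 14472 ± 1808 and 11486 ± 3383 CPM (control first, SD, n = 4 each). Of 6 tested 0 passed, 1 had a positive log2 fold change and the median was -0.22. Germline markers summed to at most 0.335 and 0.726 CPM, of which aub held 0.145 ± 0.0857 and 0.273 ± 0.169 CPM and osk 0.0243 ± 0.0280 and 0.0346 ± 0.0692 CPM.

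Of the 10 EGFR genes, Krn was higher in LamDm0 guts by edgeR's quasi-likelihood test (adjusted p under 0.05), 0 were lower and 9 did not pass. Over all 8794 genes tested 8.03% were called, so 1 call in 10 is near the background. Krn was also the 1 member whose groups did not overlap, and 17.3% of all genes tested had no overlap. At an unadjusted p under 0.05 there were 2 members, Krn and sty, against 23.9% of all genes. The median log2 fold change of the 10 was 0.13, beside 0.01 over all genes tested. It was positive for 7 of the 10, as it was for 51.3% of all genes tested.

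**Figure D1:**
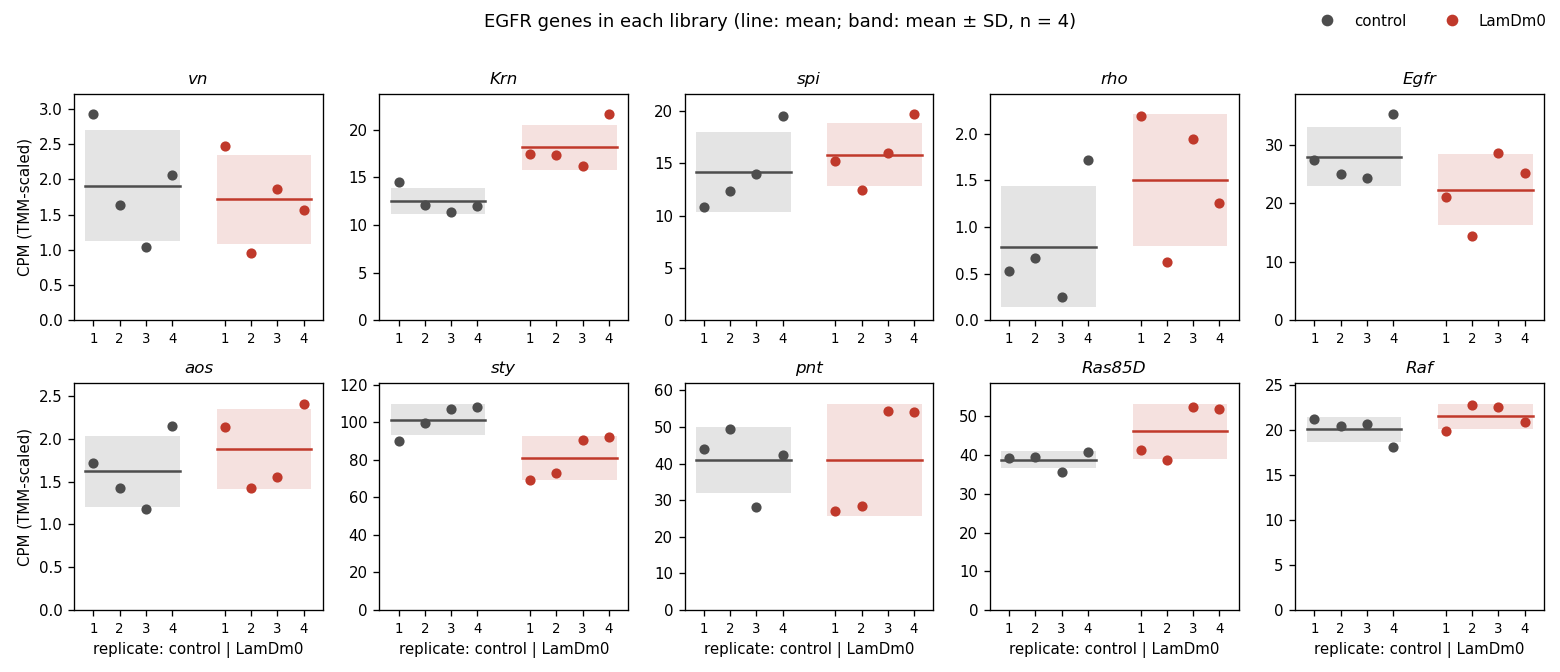
TMM-scaled CPM of the 10 EGFR genes in each of the 4 control (dark grey) and 4 LamDm0 (red) libraries, with the group mean as a line and mean ± SD as a band. For Krn all 4 red points (16.2 to 21.6 CPM) lie above all 4 grey points (11.4 to 14.5 CPM), whereas pnt in LamDm0 guts lies at 27.0 and 28.5 CPM in replicates 1 and 2 and at 54.5 and 54.0 CPM in replicates 3 and 4.

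Among the ligand genes, Krn rose in LamDm0 guts. Krn (FBgn0052179, chromosome arm 3L, 17649562 to 17654280, minus strand in BDGP6.54) had 14.5, 12.1, 11.4 and 12 CPM in control replicates 1 to 4 and 17.5, 17.4, 16.2 and 21.6 CPM in LamDm0 replicates 1 to 4. The lowest LamDm0 library stood above the highest control. The mean went from 12.5 ± 1.38 to 18.2 ± 2.36 CPM, a fold of 1.46 with a 95% interval of 1.20 to 1.77 (log2 fold change 0.54 ± 0.12 SE, adjusted p = 0.034). These values rest on 231 to 949 reads per library. In bulk RNA, more cells that express a gene and more RNA per cell cannot be told apart. The log2 fold change of Krn stayed positive, between 0.45 and 0.73, under all 20 alternatives run. Its call ended without any 1 library other than control replicate 1 (adjusted p up to 0.091), when LamDm0 replicates 1 and 2 or replicates 3 and 4 were left out (adjusted p = 0.06 and 0.087) and with replicates summed in pairs (adjusted p = 0.38). In the authors' deposited table the log2 fold change of Krn was 0.51, with an adjusted p of 0.0079, the smallest p among the 10 genes, and Krn was the 1 member under 0.05 where 12.2% of genes were. DESeq2 run here also called 12.2% of genes and, of the members, called Krn.

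The Krn count is not fully separate from that of a neighbour. In the Ensembl annotation of that build Krn shares its 5′ end, strand and 289 of its 1354 exon bases (21.3%) with Ndfip (FBgn0052177, 3L, 17647442 to 17654280), and how the authors' counting treated reads in the shared exon is not given in the sources used here. Ndfip had 43.9, 41.4, 31.4 and 32.2 CPM in control replicates 1 to 4 and 49.2, 57.4, 47.4 and 54.0 CPM in LamDm0 replicates 1 to 4. The groups did not overlap for Ndfip either, with a log2 fold change of 0.48 ± 0.14, although it did not pass (adjusted p = 0.066). The part of the shared exon in the Krn result was not tested. The other 9 members share no exon base with another gene in that annotation. Fat body and yolk markers also moved with the groups: their summed level was 20.6 to 794 CPM in control and 913 to 1886 CPM in LamDm0 libraries, 5 of the 6 were tested, all 5 had positive log2 fold changes and 0 passed. Yp1 went from 222 ± 161 to 541 ± 188 CPM, Yp3 from 125 ± 83.2 to 373 ± 108 CPM, and Lsp2, which was not tested, was at 0 in all control libraries and at 0 to 6.95 CPM in LamDm0 libraries (1.78 ± 3.45 CPM). Their part in the Krn result was not tested.

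**Figure D2:**
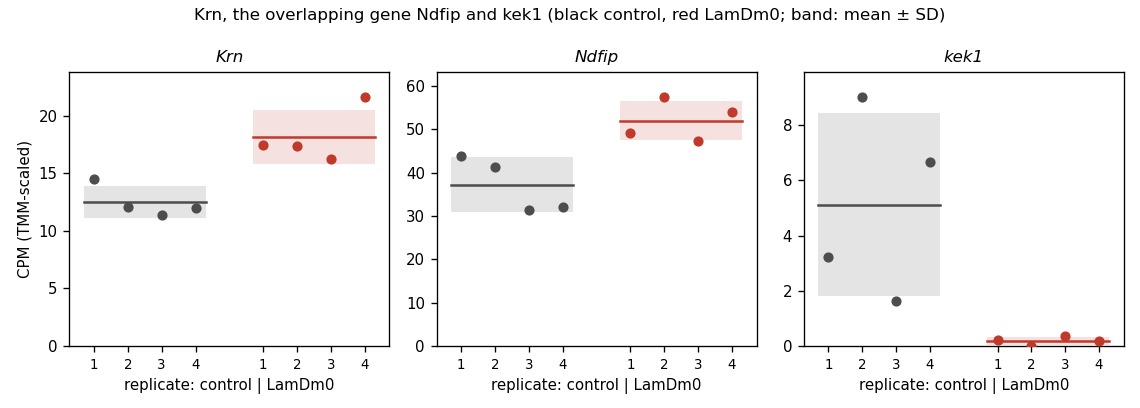
TMM-scaled CPM by library of Krn, of Ndfip, which shares 289 exon bases with it, and of the EGFR inhibitor gene kek1, with group means and mean ± SD. Krn and Ndfip separate the groups upward, and kek1 separates them downward, with 0 to 0.346 CPM in LamDm0 libraries.

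The gene of the second membrane-bound ligand, spi (FBgn0005672, 2L, 19567900 to 19577315), did not pass. It had 10.8, 12.4, 14 and 19.5 CPM in control replicates 1 to 4 and 15.2, 12.4, 16.0 and 19.7 CPM in LamDm0 replicates 1 to 4. The groups overlapped over most of their range, and in each of them replicate 4 was highest. The fold was 1.12, with a 95% interval of 0.812 to 1.54 (adjusted p = 0.68).

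vn (FBgn0003984, 3L, 5813338 to 5845664), the gene of the ligand that needs no cleavage, was scarce. Its 20 to 69 reads per library gave 2.92, 1.63, 1.04 and 2.06 CPM in control and 2.46, 0.952, 1.87 and 1.57 CPM in LamDm0 replicates 1 to 4. The groups overlapped, and each spanned more than the difference between their means of 1.91 ± 0.793 and 1.71 ± 0.629 CPM. The log2 fold change was -0.15 ± 0.37 (adjusted p = 0.84), the 95% interval of the fold was 0.50 to 1.62, and its sign turned to 0.12 without control replicate 1, to 0.04 without LamDm0 replicate 2 and to 0.02 with library totals alone in place of TMM. Visceral muscle markers, from the tissue vn is known from, spanned 1780 to 3379 CPM in sum in control and 1606 to 3624 CPM in LamDm0 libraries. Of 13 tested, 0 passed, 2 had positive log2 fold changes and the median was -0.04. The most abundant were Tm1 (427 ± 65.5 and 476 ± 29.9 CPM) and Act57B (428 ± 173 and 388 ± 162 CPM).

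Set per length, the 3 ligand genes kept 1 order in means. Krn had 9.22 ± 1.02 CPM per kb of exon in control and 13.4 ± 1.74 in LamDm0 guts, spi had 7.80 ± 2.08 and 8.71 ± 1.65, and vn had 0.365 ± 0.151 and 0.327 ± 0.120. Krn and spi overlapped in control libraries and did not in LamDm0 libraries. Of the summed level per kb of the 3, Krn made up 62.2%, 55.6%, 51.6% and 44.2% in control replicates 1 to 4 and 59.3%, 64.6%, 56.7% and 58.9% in LamDm0 replicates 1 to 4. These shares overlapped between the groups, with means of 53.4% ± 7.52 and 59.9% ± 3.37. vn made up 0.915% to 3.24%. The length used for Krn includes the 289 exon bases it shares with Ndfip. Its level per kb and its share thus depend on how reads there were counted, and that part was not tested.

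rho (FBgn0004635, 3L, 1463811 to 1468944), which encodes the protease that activates Spitz and Keren, was the scarcest member in control guts and the most uneven. Control replicates 1 to 4 had 11, 13, 5 and 36 reads and 0.527, 0.662, 0.246 and 1.72 CPM. LamDm0 replicates 1 to 4 had 55, 13, 56 and 55 reads and 2.19, 0.619, 1.94 and 1.25 CPM. Control replicate 4 and LamDm0 replicate 2 lay among the values of the other group. The fold of 1.89 had a 95% interval of 0.762 to 4.71 and did not pass (adjusted p = 0.38). The log2 fold change of 0.92 went to 1.64 without control replicate 4 (adjusted p from 0.10 to 0.58 over the libraries left out). The interval thus spans both a fall and a rise.

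The receptor gene Egfr (FBgn0003731, 2R, 21522420 to 21559977) had 27.3, 25.0, 24.3 and 35.1 CPM in control replicates 1 to 4. In LamDm0 replicates 1 to 4 it had 21.1, 14.4, 28.5 and 25.2 CPM. Replicates 1 and 2 of the LamDm0 group lay below all controls, and replicates 3 and 4 lay among them. The fold was 0.799, with a 95% interval of 0.572 to 1.12 (log2 fold change -0.32 ± 0.21, adjusted p = 0.40). The log2 fold change was -0.64 without LamDm0 replicates 3 and 4 (adjusted p = 0.16) and -0.06 without replicates 1 and 2 (adjusted p = 0.85).

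Of the inhibitors induced by the pathway, sty was the most abundant member, and it stood lower in LamDm0 guts without passing. sty (FBgn0014388, 3L, 3401153 to 3424935) had 90.2, 99.7, 107 and 108 CPM in control and 69.1, 73.2, 90.3 and 92.1 CPM in LamDm0 replicates 1 to 4. All 4 LamDm0 libraries were below the control mean of 101 ± 8.41 CPM, and 2 of them lay above control replicate 1. The fold was 0.801, with a 95% interval of 0.656 to 0.977 (log2 fold change -0.32 ± 0.13, adjusted p = 0.17). The adjusted p was at least 0.069 under every alternative, that value being reached without LamDm0 replicates 3 and 4. In the authors' deposited table sty had a log2 fold change of -0.33 and an adjusted p of 0.11.

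aos (FBgn0004569, 3L, 16470386 to 16483650), the gene of the secreted inhibitor, had 24 to 106 reads per library. It stood at 1.72, 1.43, 1.18 and 2.15 CPM in control and 2.15, 1.43, 1.56 and 2.41 CPM in LamDm0 replicates 1 to 4. The groups overlapped in all but the extremes, and the fold of 1.17 (95% interval 0.766 to 1.78, adjusted p = 0.66) did not pass. sty and aos thus had log2 fold changes of opposite sign, neither past the test.

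pnt (FBgn0003118, 3R, 23290231 to 23346167), the transcription factor gene at the end of the cascade, had equal means and unequal libraries. It had 43.9, 49.4, 28.2 and 42.3 CPM in control and 27.0, 28.5, 54.5 and 54.0 CPM in LamDm0 replicates 1 to 4. LamDm0 replicates 1 and 2 lay with control replicate 3, and LamDm0 replicates 3 and 4 lay above every control. The mean was 41.0 ± 9.0 CPM over the controls and 41.0 ± 15.3 CPM over the LamDm0 libraries, and the log2 fold change was 0.00 ± 0.28 (adjusted p = 0.997, 95% interval of the fold 0.648 to 1.55). It was -0.56 without LamDm0 replicates 3 and 4 and 0.41 without replicates 1 and 2 (adjusted p = 0.21 and 0.25), so the direction rests on which pair is kept.

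In the cascade, Ras85D (FBgn0003205, 3R, 9510561 to 9513067) had 39.2, 39.6, 35.7 and 40.7 CPM in control and 41.4, 38.8, 52.5 and 51.9 CPM in LamDm0 replicates 1 to 4. LamDm0 replicates 1, 3 and 4 were above all controls, replicate 1 by less than 1 CPM, and replicate 2 was among the controls. The fold was 1.19, with a 95% interval of 0.982 to 1.44 (log2 fold change 0.25 ± 0.12, adjusted p = 0.26), and Ras85D passed when LamDm0 replicates 1 and 2 were left out (log2 fold change 0.43, adjusted p = 0.038). Raf (FBgn0003079, X, 2295466 to 2343870) had 21.2, 20.4, 20.7 and 18.1 CPM in control and 19.9, 22.8, 22.5 and 20.9 CPM in LamDm0 replicates 1 to 4. Its groups overlapped, and its fold of 1.07 had the narrowest interval of the 10, 0.924 to 1.24 (adjusted p = 0.56).

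**Figure D3:**
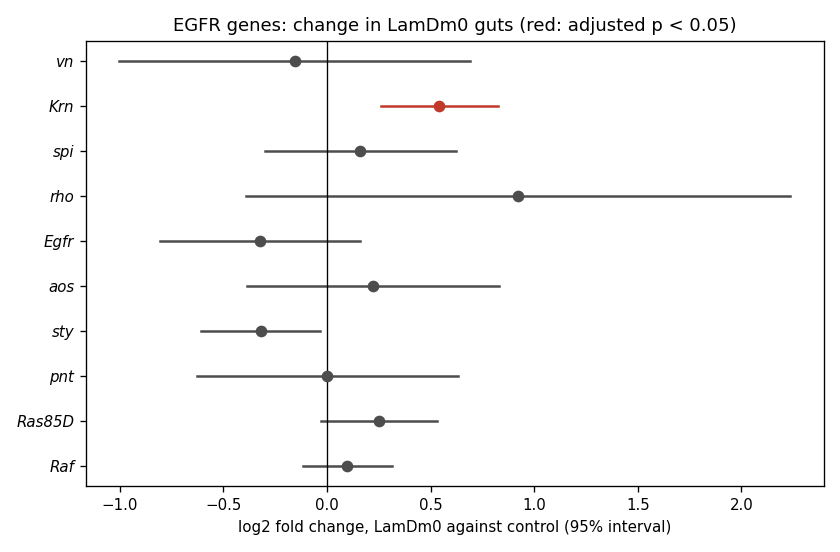
Log2 fold change (LamDm0 against control) of each EGFR gene with its 95% interval from edgeR's quasi-likelihood fit. Krn, in red, passed the test at 0.54, the interval of sty ends just below 0, and that of rho is the widest, from -0.39 to 2.24.

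The spread between libraries differed among the members. The coefficient of variation within a group was 5.59% (control) and 15.3% (LamDm0) for Ras85D, 6.88% and 6.43% for Raf, 8.29% and 14.4% for sty and 11.1% and 13% for Krn. It reached 41.5% and 36.7% for vn and 81.8% and 47.2% for rho, the members with the fewest reads. pnt, with at least 573 reads in each library, had 22.0% and 37.4%. In the LamDm0 group, 5 of the 10 (spi, Egfr, sty, pnt and Ras85D) were lower in both replicates 1 and 2 than in replicates 3 and 4, and 0 showed the opposite order, where 32.9% and 32.8% of all genes tested had these orders. The mean of replicates 3 and 4 was 1.96 times that of replicates 1 and 2 for pnt and 1.51 times for Egfr, and 7.64% of all genes reached 1.5 times. In the control group, 6 members (spi, rho, Egfr, aos, sty and Ras85D) were highest in replicate 4, as were 24.5% of all genes tested. The summed stem cell and enteroblast markers were 42.7, 44.7, 43.1 and 86.2 CPM in control and 48.4, 33.7, 76.2 and 76.1 CPM in LamDm0 replicates 1 to 4, so the same control library and the same LamDm0 pair stood high. Of these 6 markers 0 passed, the most abundant being esg (22.4 ± 8.36 and 19.1 ± 6.69 CPM, control first) and Sox21a (9.11 ± 7.98 and 15.5 ± 8.86 CPM). The part of progenitor content in the members' values was not tested.

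Level per length separated the members into an abundant and a scarce set. In control guts Ras85D had 19.8 ± 1.11 CPM per kb of exon and sty 18.6 ± 1.55, and these overlapped. Krn, spi, pnt, Raf and Egfr followed at 9.22, 7.80, 6.69, 4.73 and 4.02 CPM per kb, each overlapping its neighbour, and Krn did not overlap sty. aos, vn and rho followed at 0.574, 0.365 and 0.263 CPM per kb, overlapping each other and not Egfr. In LamDm0 guts the order of means was the same except that rho (0.500) stood above vn (0.327). Ras85D at 23.6 ± 3.61 CPM per kb no longer overlapped sty at 14.9 ± 2.15, and Krn at 13.4 ± 1.74 did overlap sty. The place of Krn in both orders depends on how reads in the exon shared with Ndfip were counted, and that part was not tested. On the scale of CPM, not corrected for length, sty was above 83.5% of all genes tested and rho above 7.99%. By position, 5 of the 10 (vn, Krn, rho, aos and sty) lie on chromosome arm 3L, which holds 19.2% of the genes tested.

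**Figure D4:**
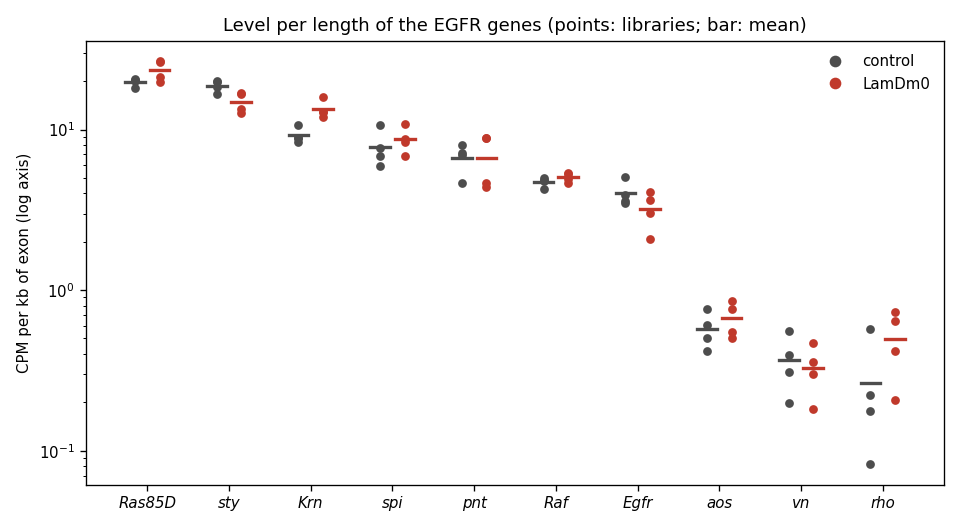
CPM per kb of exon (log axis) of the 10 EGFR genes, ordered by the control mean, with a point per library and a bar at the group mean. Ras85D to Egfr lie between 2.07 and 26.8 CPM per kb, and aos, vn and rho lie below 1.

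Beyond the members, 5 lists held 61 further symbols, of which 60 matched a gene and 52 genes were tested. The last of these lists, of other receptor tyrosine kinases and their ligands, lies outside the EGFR pathway itself. It held 11 of the 52 genes tested, so the values below are not of the EGFR pathway alone. Of these 52, 0 were higher, 1 was lower and 51 did not pass, a share called of 1.92% where 8.03% of all genes tested were called. In 5 of the 52 the groups did not overlap, csw and Cdc37 upward and 14-3-3zeta, kek1 and ths downward, the names being chosen after the values were seen; over all genes tested 17.3% had no overlap. The median log2 fold change of the 52 was 0.05.

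The 1 call was kek1 (FBgn0015399, 2L, 12817000 to 12822787), which encodes a transmembrane protein that binds and inhibits Egfr and is itself induced by the pathway in the ovary. It had 67, 177, 33 and 139 reads (3.21, 9.01, 1.63 and 6.65 CPM) in control replicates 1 to 4 and 5, 0, 10 and 8 reads (0.199, 0, 0.346 and 0.182 CPM) in LamDm0 replicates 1 to 4. The controls were uneven, yet each lay above every LamDm0 library. The log2 fold change was -4.72 ± 0.73 (adjusted p = 0.0065), or 26.3-fold lower, and lay between -4.30 and -5.51 over the alternatives. The count of 0 in LamDm0 replicate 2 allows up to 0.132 CPM by library total, without TMM scaling, for counting error only. kek1 passed when any 1 library was left out (adjusted p = 0.0057 to 0.025) and with replicates summed in pairs (adjusted p = 0.02). Without LamDm0 replicates 3 and 4 its adjusted p was 0.0498. It did not pass with a block on replicate number (adjusted p = 0.061), and it was not tested at a minimum mean of 10 CPM.

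The other 12 of 13 tested inhibitors and negative feedback genes did not pass, and the list median was -0.09. The MAP kinase phosphatase gene Mkp3, named after its values were seen, had 24.1, 25.8, 18.0 and 19.0 CPM in control and 16.1, 10.1, 20.3 and 22.4 CPM in LamDm0 replicates 1 to 4 (log2 fold change -0.33 ± 0.24, adjusted p = 0.45). Its LamDm0 libraries split between replicates 1 and 2 and replicates 3 and 4, as those of Egfr, sty and pnt did.

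Of 19 genes of the Ras and MAP kinase cascade 0 passed, 14 had positive log2 fold changes and the median was 0.14. Of all genes tested 51.3% were positive. The smallest p belonged to Dsor1, the MAP kinase kinase gene. It had 15.8, 15.9, 17.2 and 19.4 CPM in control and 18.9, 21.5, 27.1 and 26.4 CPM in LamDm0 replicates 1 to 4, with overlap between control replicate 4 and LamDm0 replicate 1. Its log2 fold change was 0.46 ± 0.14 (adjusted p = 0.081), and it passed without LamDm0 replicate 1 (adjusted p = 0.046) or without LamDm0 replicates 1 and 2 (adjusted p = 0.024).

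Of the further ligand and ligand-processing genes 5 of 9 were tested and 0 passed, with a median of 0.05. The rhomboid genes ru, stet, rho-5 and rho-6 did not pass the filter on low counts, with 1, 16, 58 and 47 reads over the 8 libraries. The smallest p belonged to cnir, a cornichon-related gene, at 1.71 ± 0.475 and 2.37 ± 0.878 CPM (log2 fold change 0.47 ± 0.32, adjusted p = 0.42).

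Among 4 genes listed here as repressed in intestinal stem cells by Capicua, a repressor that EGFR signalling inhibits, 0 passed by edgeR. Whether Capicua represses each of them in these guts was not tested. The smallest p belonged to stg, a phosphatase that starts mitosis, with 0.335, 0.153, 0.246 and 0.861 CPM in control and 1.07, 0.762, 1.49 and 1.68 CPM in LamDm0 replicates 1 to 4. Control replicate 4 lay above LamDm0 replicate 2, and the other controls lay below all LamDm0 libraries. The log2 fold change was 1.65 ± 0.50 (adjusted p = 0.085), with an adjusted p of 0.02 without control replicate 4 and 0.028 by DESeq2. Named after its values were seen, Ets21C stood at 25.5, 27.6, 4.14 and 5.40 CPM in control and 8.83, 5.95, 9.48 and 9.33 CPM in LamDm0 replicates 1 to 4 (log2 fold change -0.89 ± 0.58, adjusted p = 0.39). CycE, also named after its values were seen, stood at 1.13 ± 0.684 CPM in control and 3.15 ± 1.59 CPM in LamDm0 libraries. Its log2 fold change was 1.48 ± 0.52 (adjusted p = 0.13). The list median of 0.64 therefore lay between genes of opposite sign, 2 of the 4 being positive.

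Other receptor tyrosine kinases and their ligands gave 0 calls among 11 tested, with a median of -0.27. The smallest p belonged to ths, a fibroblast growth factor gene, which had 0.670, 0.865, 0.641 and 0.669 CPM in control and 0.199, 0.381, 0.380 and 0.455 CPM in LamDm0 replicates 1 to 4. The groups did not overlap, on 5 to 20 reads per library, and the log2 fold change of -0.98 ± 0.32 did not pass (adjusted p = 0.10).

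**Figure D5:**
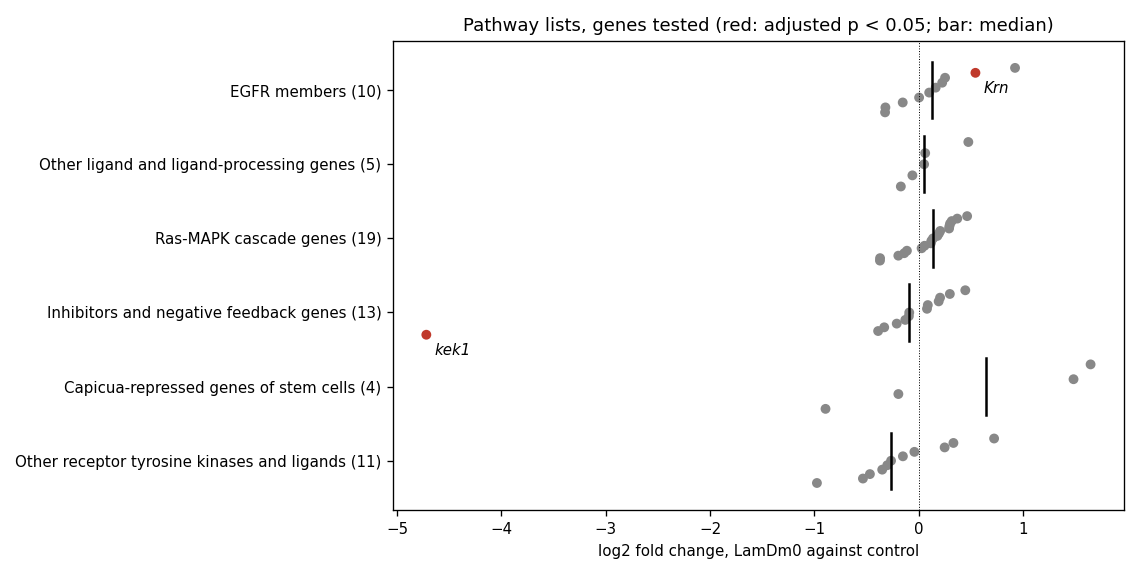
Log2 fold change (LamDm0 against control) of each gene tested in 6 lists, with the number tested in brackets and a bar at the list median. The last list, of other receptor tyrosine kinases and their ligands, lies outside the EGFR pathway itself. The red points are Krn at 0.54 and kek1 at -4.72, the 2 genes past the test.

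Genes whose log2 CPM followed a member most closely over the 8 libraries are given as a description, since all points share the same 8 libraries and the comparison ran over 6652 or 6653 genes averaging 5 CPM or more. For Egfr they were Snx21 (Pearson r = 0.97), CG17883 (0.96) and Tet (0.96), and for spi the catenin gene p120ctn (0.95), the caspase gene Damm (0.94) and CG14495 (0.94). For Krn they were sud1 (0.95), Rcd-1 (0.94) and CG9346 (0.94). The r of sud1, Rcd-1 and CG9346 was 0.79, 0.84 and 0.74 after subtraction of the group means, so part of it came from the difference between groups. For vn they were spri (0.91), CG1572 (0.89) and Pka-C3 (0.85). Of these 12 genes 0 passed the test between groups, and the smallest adjusted p was 0.074, for sud1.

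The remaining cell type markers gave 1 call by edgeR. Of 10 enteroendocrine markers 0 passed, 9 had positive log2 fold changes, where 51.3% of all genes tested did, and the median was 0.34. Their sums were 166 to 311 CPM in control and 229 to 328 CPM in LamDm0 libraries. The most abundant, the hormone genes AstC and CCHa2, stood at 82.3 ± 21.5 and 83.1 ± 20.1 CPM and at 49.4 ± 20.5 and 60.8 ± 9.76 CPM. Trachea, haemocyte and neuron markers gave 0 calls among 5, 3 and 4 tested, with median log2 fold changes of 0.28, 0.44 and -0.18. Of the 5 trachea markers 3 had positive log2 fold changes, and the pair named here had negative ones. Their most abundant members were Gasp (10.7 ± 2.71 and 7.49 ± 2.02 CPM) and btl (5.31 ± 1.48 and 3.64 ± 1.25 CPM) for trachea, crq (116 ± 36.2 and 118 ± 3.39 CPM) and Ppn (30.1 ± 3.4 and 40.9 ± 20.5 CPM) for haemocytes, and elav (6.10 ± 0.509 and 5.12 ± 1.13 CPM) and nSyb (1.88 ± 0.446 and 1.72 ± 0.755 CPM) for neurons. The other haemocyte markers, named after their values were seen, were scarce. Hml stood at 1.13 ± 0.754 and 1.89 ± 1.54 CPM. He (0.0127 and 0 CPM), eater (0.0359 and 0.0481 CPM) and NimC1 (0.0602 and 0.634 CPM) were not tested. The groups did not overlap for NimC1, at 0 to 0.191 CPM in control and 0.205 to 1.35 CPM in LamDm0 libraries. Of 6 Malpighian tubule markers 1 was lower, Oatp58Db, at 6.17 ± 3.78 and 0.505 ± 0.214 CPM (adjusted p = 0.0057), while Irk2 stood at 85.3 ± 26.8 and 71.4 ± 14.4 CPM and Oatp58Da at 27.6 ± 7.07 and 39.8 ± 10 CPM. Oatp58Da was the 1 of the 6 with a positive log2 fold change, and the list median was -0.66. The summed tubule markers overlapped between the groups, at 91.2 to 206 and 101 to 148 CPM.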

How the data were processed

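The authors deposited raw counts of reads per gene, whole numbers with a different total in each library, for 8 of 12 pooled poly(A) libraries made from 100 ng of RNA with a kit that marks strand and read as single 50 nt reads on 2 lanes, per the labels' protocols. The submitters' processing notes name BDGP6 and, in no stated role, DESeq2 1.10.1, HTSeq 0.6.0 and TopHat2 2.0.13. Sources used here do not give the annotation, strand setting or treatment of shared reads. The authors' deposited table gives for each gene, per the file headers, its p-value before and after adjustment, its log2 fold change and a mean signal. 0 columns of per-sample values were left unused.

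Counts of all 17559 genes were tested with edgeR 4.0.16 (R 4.3.3): filterByExpr, TMM scaling, F-tests of the LamDm0 effect from a quasi-likelihood fit to 8794 genes, no block, Benjamini-Hochberg adjustment over all genes tested, threshold 0.05, two-sided. SE is the log2 fold change divided by the square root of F, and 95% intervals use the fit's degrees of freedom. CPM per kb divides by the union of exons in Ensembl's BDGP6.54 annotation, matched by FlyBase identifier. The steps were tested on simulated counts. A count of 0 allows up to 3 counts, 0.0833 to 0.152 CPM by library totals, without TMM scaling.

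The members and lists were chosen with earlier results of these data known. Of 142 symbols listed, 4 matched no gene. Named were all members, Lam, up to 4 called genes per pathway list or else the 1 with the smallest p, the 2 most abundant genes per marker list, and the 3 genes most like vn, Krn, spi and Egfr by Pearson r. Genes named outside this rule, after their values were seen, are Ndfip, Lsp2, Oatp58Db, the 4 untested rhomboid genes, genes called under an alternative alone, and those marked so. No sequence is printed.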

Additional observations from a re-analysis of the deposited data

Results flagged for a closer look

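In 98 groups of 4 libraries (49 named genes in 2 groups), 5 held a library far from the other 3, about what chance gives at 1 in 20, and 0 of the 20 groups of EGFR genes did. Sox21a, a progenitor transcription factor gene, had 21.0 CPM in control replicate 4 against 4.50 to 6.01 CPM in the other controls. ths had 0.865 CPM in control replicate 2 against 0.641 to 0.670 CPM. CCHa2, a peptide hormone gene, had 46.1 CPM in LamDm0 replicate 4 against 65.1 to 66.3 CPM, and btl, a receptor gene of the trachea, had 1.76 CPM in LamDm0 replicate 2 against 4.21 to 4.30 CPM. The germline gene osk had 0.138 CPM in LamDm0 replicate 3 and 0 in the other LamDm0 libraries, which is close to the limit that a count of 0 allows. With 0 in the others, its gap equals the range at any count, so its flag was fixed in advance.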

How the results depend on the processing

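Krn was the member called by RLE scaling, upper-quartile scaling, library sizes without mitochondrial genes and Lam, no filter, a minimum mean of 10 CPM (vn, rho and aos could not be fitted there), DESeq2 and limma-voom. The number of members called was 0 with a replicate block, without LamDm0 replicates 3 and 4, with replicates summed in pairs and with library totals alone (chosen after seeing the data), and 0 to 1 when 1 library was left out. Called genes of the further lists numbered 0 with a minimum mean of 10 CPM (kek1 was not tested there), 2 by DESeq2 (kek1 and stg), 3 without LamDm0 replicates 1 and 2 (kek1, Dsor1 and 14-3-3epsilon) and 1 to 3 when 1 library was left out. Over all genes 706 were called, against 465 with a minimum mean of 10 CPM, 1287 by DESeq2, 439 without LamDm0 replicates 3 and 4 but 878 without replicates 1 and 2, 72 with replicates summed in pairs and 346 to 654 when 1 library was left out (346, 396, 397 and 387 without control replicate 1 or 2 or LamDm0 replicate 3 or 4). The cause was not tested.

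Over all genes tested, same-numbered libraries did not deviate together (r of -0.37 to -0.03). The labels state no pairing by number, and these r cannot exclude it. With the replicate block 332 genes were called, Krn was not (adjusted p = 0.091), nor was kek1 (adjusted p = 0.061), and CycE was (log2 fold change 1.48).

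The sign of pnt turned with RLE scaling (-0.0171), library sizes without mitochondrial genes and Lam (-0.0067), DESeq2 (-0.0164), limma-voom (-0.0623), the replicate block (-0.0511) and without LamDm0 replicates 3 and 4 (-0.56), and lay between -0.16 and 0.16 over the fits lacking 1 library. Over those fits vn lay between -0.37 and 0.12, and it stood at 0.021 with library totals alone. spi turned to -0.0262 without LamDm0 replicates 3 and 4. Library totals alone moved the median log2 fold change of all genes from 0.01 to 0.20 and the share of higher genes among those called from 59.3% to 80.4%, so the 0.73 of Krn there includes that shift. vn, rho and aos had as few as 20, 5 and 24 reads in a library; the part of depth in their spread was not tested.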
